A study of Mus musculus with 24 samples.

Results

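The genes described here are 10 activity-induced immediate early genes, namely Fos, Fosb, Junb, Egr1, Egr2, Egr3, Egr4, Nr4a1, Npas4 and Arc. They were taken by symbol from a table of 55450 genes measured by RNA sequencing in mice lacking Thumpd1 (knockout, KO) and in wild-type (WT) controls, from cerebellum, liver and testes. Each of the 10 symbols matched a single row. The rule used no measured value, but the genes were picked with earlier results of these data known, so their counts are descriptions. The data are described across 24 libraries in 6 groups of 4.

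All mice descended from C57BL/6N eggs and were kept by backcrossing on a C57BL/6 background. The KO allele was made by injecting Cas9 and a pair of guides that cut Thumpd1 in exons 1 and 4, and KO mice lacked an intact copy on both chromosomes. WT controls, by the study's general statement, were age-matched littermates, and no treatment is named for either genotype. Animals were 6 to 12 weeks old and of either sex, and the labels give neither the sex, the hour of death nor the handling before death for any library. Lights were on for 12 of each 24 h. Thumpd1 encodes a tRNA-binding adaptor needed to acetylate serine and leucine tRNAs, and the deletion is carried by all cells of a KO mouse, not by a chosen cell type. The comparison asks how that loss changed messenger RNA in each tissue.

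Immediate early genes are transcribed within minutes of a stimulus without new protein synthesis. In neurons, calcium entry and growth factor signals activate kinases that phosphorylate the factors CREB and SRF, which are already bound near these genes, and the products then switch on slower effector genes. Their messages are short-lived, so a level in a dissected tissue reflects both steady signalling and recent events in the animal. Fos, Fosb and Junb encode subunits of the AP-1 factor, Egr1 to Egr4 encode zinc finger factors, Nr4a1 encodes an orphan nuclear receptor, and Npas4 encodes a neuronal bHLH-PAS factor. Arc encodes a postsynaptic protein that removes AMPA receptors from synapses.

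In the mm10 annotation, Fos (ENSMUSG00000021250.13) lies on the plus strand of chromosome 12 from 85473890 to 85477273. Fosb (ENSMUSG00000003545.3) lies on the minus strand of chromosome 7 from 19302696 to 19310051, and Junb (ENSMUSG00000052837.6) on the minus strand of chromosome 8 from 84974484 to 84978718. Among the zinc finger genes, Egr2 (ENSMUSG00000037868.15) spans chromosome 10 from 67535475 to 67542188 on the plus strand, and Egr3 (ENSMUSG00000033730.4) chromosome 14 from 70077203 to 70082614 on the plus strand. Egr4 (ENSMUSG00000071341.4) spans chromosome 6 from 85511121 to 85513589 on the minus strand. Nr4a1 (ENSMUSG00000023034.7) and Arc (ENSMUSG00000022602.14) are both on chromosome 15, Nr4a1 on the plus strand from 101254269 to 101274795 and Arc on the minus strand from 74669083 to 74672570. Npas4 (ENSMUSG00000045903.9) is on the minus strand of chromosome 19 from 4984355 to 4990316. Counts were summed over all exons, untranslated parts included. Exons of Junb overlap those of Prdx2 on the opposite strand, and the strand setting of the counting is not given in the sources used here, so Junb values are uncertain in that respect.

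RefSeq promoter entries on GRCm38.p6 were used for 7 of the 10 genes. Promoters of Egr1, Egr3 and Arc were not searched, so the member counts below do not cover them. The 250 bases before the start are shown for Fosb, which was higher in every KO cerebellum, and for Fos, Npas4 and Nr4a1, whose levels split the KO cerebella. Capitals mark TGACG or its reverse complement CGTCA, the shorter site within the cAMP response element bound by CREB, and GCGNGGGCG or its reverse complement, the site bound by Egr factors. The sequences, 5′ to 3′ on the strand of the gene, are at chr7:19310046-19310295 (minus) for Fosb, chr12:85473640-85473889 (plus) for Fos, chr19:4989972-4990221 (minus) for Npas4 and chr15:101266596-101266845 (plus) for Nr4a1.
Fosb: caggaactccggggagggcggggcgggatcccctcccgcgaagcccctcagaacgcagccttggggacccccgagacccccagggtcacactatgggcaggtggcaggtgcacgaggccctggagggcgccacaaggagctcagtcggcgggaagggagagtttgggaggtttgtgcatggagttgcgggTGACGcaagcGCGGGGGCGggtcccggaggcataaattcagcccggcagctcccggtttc
Fos: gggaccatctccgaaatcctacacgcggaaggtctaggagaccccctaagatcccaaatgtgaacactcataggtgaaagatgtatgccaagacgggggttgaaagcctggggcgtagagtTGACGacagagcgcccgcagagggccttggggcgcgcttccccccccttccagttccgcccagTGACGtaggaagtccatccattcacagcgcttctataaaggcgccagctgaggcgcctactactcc
Npas4: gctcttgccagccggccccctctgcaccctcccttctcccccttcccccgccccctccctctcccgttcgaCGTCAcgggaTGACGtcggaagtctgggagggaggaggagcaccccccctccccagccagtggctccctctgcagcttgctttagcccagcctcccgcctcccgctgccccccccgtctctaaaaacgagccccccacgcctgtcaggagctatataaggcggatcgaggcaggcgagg
Nr4a1: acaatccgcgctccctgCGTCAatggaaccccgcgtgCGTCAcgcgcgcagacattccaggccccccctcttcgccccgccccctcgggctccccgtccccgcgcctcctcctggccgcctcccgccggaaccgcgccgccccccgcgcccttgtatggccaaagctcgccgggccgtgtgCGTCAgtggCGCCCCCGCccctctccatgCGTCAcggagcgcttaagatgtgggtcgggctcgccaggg
The 5-base element occurred on either strand in at least 1 entry of 7 of the 7 genes, and in at least 1 entry of 19.8% of all 27025 genes listed, over stretches of the same length. Egr2 has 5 entries and the other 6 genes have 1 each, and the element was in 9 of these 11 entries, against 17.8% of all 32851. It sat once upstream of Fosb and Junb, at 2 places upstream of Fos, Npas4 and Egr4, and at 4 places upstream of Nr4a1. The full element TGACGTCA, which contains the shorter one, occurred in 0 of 7 genes against 1.77% of all genes. The CArG box, bound by SRF, occurred in 1 of 7 (4 overlapping or nearby entries of Egr2) against 1.62% of all genes, the AP-1 site TGANTCA in 0 of 7 against 7.82%, and the Egr site in 2 of 7 (Fosb and Nr4a1) against 5.33%. These are matches of letters in short windows and not measured binding.

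Total counts per library ran from 16353797 to 37889615. Thumpd1 held 406 to 539 counts in WT and 0 to 2 in KO cerebellum, 248 to 325 and 0 to 4 in liver, and 740 to 846 and 23 to 41 in testes, so all libraries fitted their genotype labels. Marker sums fitted the tissue labels, with 5 hepatocyte genes together at 46603 to 81846 CPM (count-per-million) in liver and 5 granule cell genes at 3118 to 3548 CPM in cerebellum. Libraries with neighbouring numbers (1 and 2, 3 and 4 in WT, 5 and 6, 7 and 8 in KO) often resembled each other, and the labels do not say what they share. The chi-square per gene between 2 libraries of a group had a median of 7.31 over 12 such pairs and 16.3 over 24 other pairs. In cerebellum each neighbouring pair was closer than any other pair of its group, but WT 3 and 4 in liver (346) and WT 1 and 2 in testes (12.4) were the least alike pairs of theirs. All pairs differed beyond sampling noise, so none was merged with its neighbour. Repeat preparations from 1 animal would differ by more than that noise too, and whether neighbouring libraries share an animal cannot be told from these values. In cerebellum the summed level of 7 choroid plexus genes followed these pairs, at 1051, 1076, 10.8 and 10.6 CPM in WT libraries 1 to 4 and at 14.1, 13.7, 357 and 355 CPM in KO libraries 5 to 8. The study calls the samples of a group biological replicates, but the labels name no animal or litter for any library, so p-values measure the spread between these libraries.

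In cerebellum, 4 of the 10 genes rose in KO. Egr3 and Fosb rose from near the limit of measurement to several CPM, and Egr1 and Arc rose by less than 1.5 times from high WT levels. Fos, Npas4, Nr4a1 and Junb did not pass the test. For each of them KO libraries 5 and 6 lay above every WT library while KO libraries 7 and 8 did not. Of the 10 genes, 9 were tested, 4 were called higher and 0 lower by limma-voom with Benjamini-Hochberg adjustment at 0.05. Over all 16225 genes tested, 3.93% were called higher and 2.51% lower. Fosb and Egr3 entered this test only through their KO libraries, since a gene needed 1 CPM in 4 libraries, so the count of 4 was repeated with no such filter. All 10 genes were then tested, the same 4 were called higher, and 1.37% of all genes were.

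**Figure D1:**
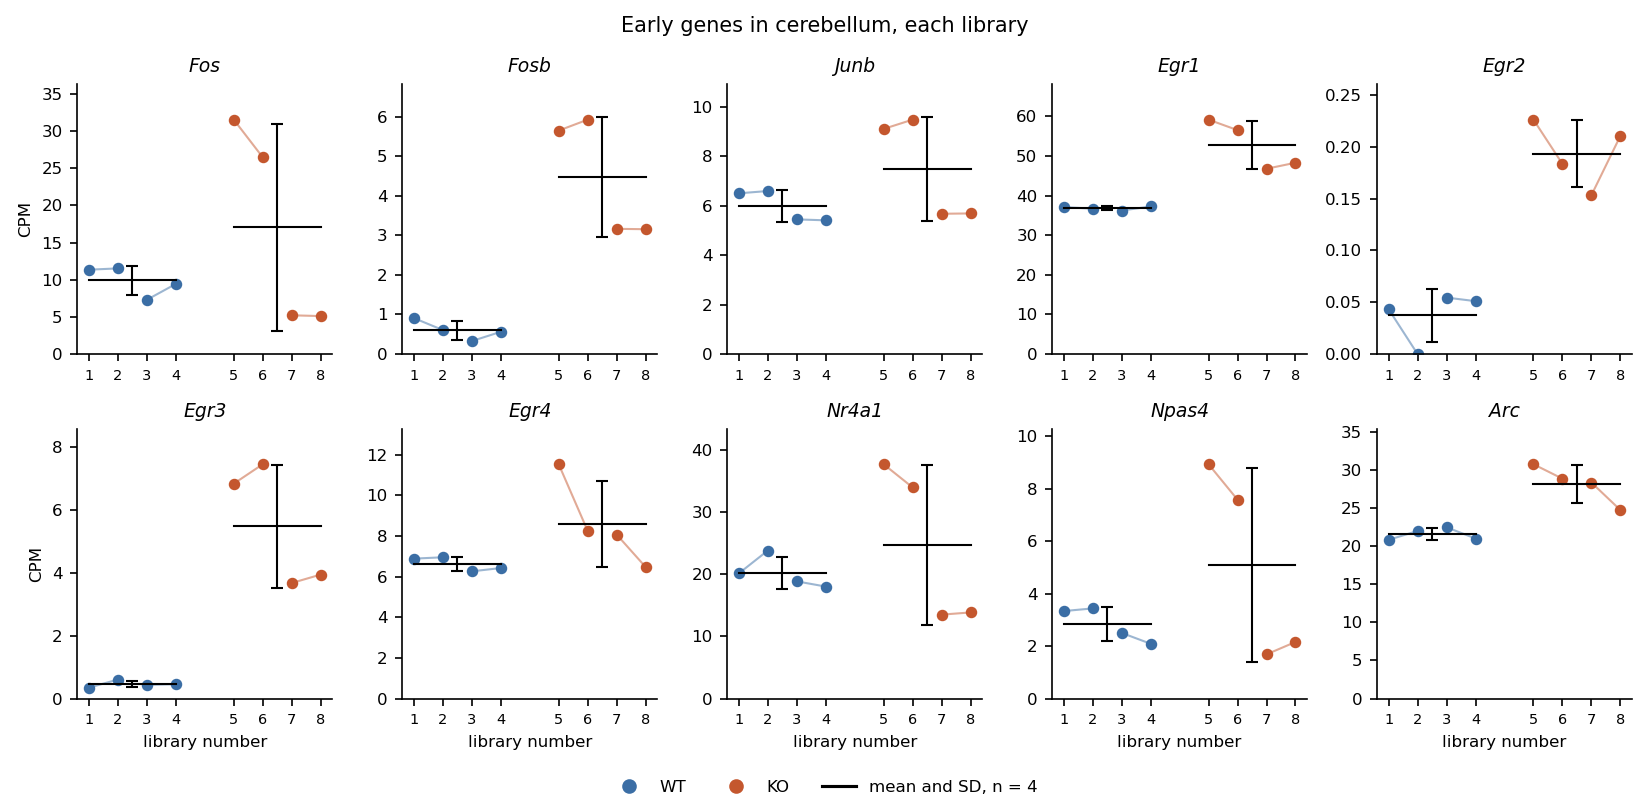
CPM of the 10 early genes in the 8 cerebellum libraries, with library number on the horizontal axis and a linear axis from 0. Thin lines join libraries with neighbouring numbers, and black lines give the mean and SD of 4 libraries. All KO points lie above all WT points for Fosb, Egr1, Egr2, Egr3 and Arc. Fos, Nr4a1, Npas4 and, to a lesser degree, Junb are high in KO libraries 5 and 6 only.

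Among AP-1 subunits, Fosb encodes a Fos family protein whose truncated form, deltaFosB, accumulates in neurons under repeated stimulation. Fosb held 0.910, 0.607, 0.327 and 0.561 CPM in WT cerebella 1 to 4 and 5.65, 5.93, 3.17 and 3.16 CPM in KO cerebella 5 to 8. Every KO library was above every WT library, by 3.16 CPM at the lowest against 0.910 CPM at the highest. These values rest on 6 to 21 counts per WT library and 60 to 100 per KO library. The mean rose 7.45-fold, from 0.601 ± 0.240 to 4.48 ± 1.52 CPM (SD, n = 4 each). The log2 change was 2.70 ± 0.32 (SE, limma-voom adjusted p = 0.000628).

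Fos, the prototype of these genes, held 11.3, 11.5, 7.30 and 9.43 CPM in WT cerebella and 31.6, 26.5, 5.21 and 5.11 CPM in KO cerebella. The KO libraries fell on both sides of the WT range, with numbers 5 and 6 above it and 7 and 8 below it. The mean of KO 5 and 6 was 29.0 CPM and that of KO 7 and 8 was 5.16 CPM, a ratio of 5.62. Over all 8 libraries the log2 change of Fos was 0.22 ± 0.50 (SE, limma-voom adjusted p = 0.831). With edgeR and DESeq2 it was 0.75 and 0.77, not called by either, and the ratio of the mean CPM was 1.73. Junb encodes an AP-1 partner that pairs with Fos proteins. Junb held 6.50, 6.59, 5.45 and 5.41 CPM in WT and 9.10, 9.48, 5.67 and 5.69 CPM in KO cerebella. Its groups overlapped, with the same order of the KO pairs as for Fos, and its log2 change was 0.22 ± 0.16 (limma-voom adjusted p = 0.430).

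Egr3, a zinc finger factor of neurons and muscle spindles, showed the largest change of the 9 genes tested. Egr3 held 0.347, 0.607, 0.436 and 0.459 CPM in WT cerebella 1 to 4 and 6.84, 7.46, 3.68 and 3.95 CPM in KO cerebella 5 to 8. The WT libraries rest on 8, 15, 8 and 9 counts of Egr3, and the lowest KO library had 72. The mean rose 11.9-fold, from 0.462 ± 0.108 to 5.48 ± 1.95 CPM (SD, n = 4 each), and the log2 change was 3.27 ± 0.35 (SE, limma-voom adjusted p = 0.000306). Egr2, best known from Schwann cell myelination, stayed near the limit of counting at 1, 0, 1 and 1 counts in WT and 4, 3, 3 and 4 counts in KO cerebella. The Egr2 groups did not overlap, but the gene failed the filter, and without the filter its log2 change was 1.85 ± 0.46 (limma-voom adjusted p = 0.0650).

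Egr1 (ENSMUSG00000038418.7, mm10 chromosome 18 from 34859823 to 34864984, plus strand) is the family member most widely used as an activity marker. Egr1 held 37.1, 36.7, 36.2 and 37.2 CPM in WT cerebella and 59.1, 56.5, 46.8 and 48.3 CPM in KO cerebella. The 4 WT libraries of Egr1 lay close together and every KO library lay above them. The mean rose 1.43-fold, from 36.8 ± 0.457 to 52.7 ± 6.08 CPM (SD, n = 4 each), with a log2 change of 0.49 ± 0.071 (SE, limma-voom adjusted p = 0.00188). Egr4 held 6.89, 6.96, 6.26 and 6.43 CPM in WT and 11.5, 8.25, 8.07 and 6.47 CPM in KO cerebella. KO library 8 of Egr4 lay within the WT range, and its log2 change of 0.30 ± 0.14 missed the threshold (limma-voom adjusted p = 0.216).

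Npas4, which neurons induce in response to calcium entry, held 3.34, 3.44, 2.50 and 2.09 CPM in WT cerebella and 8.93, 7.58, 1.69 and 2.16 CPM in KO cerebella. As for Fos, KO libraries 5 and 6 were above all WT libraries, with a mean of 8.26 CPM against 1.92 CPM in KO 7 and 8. The log2 change of Npas4 was 0.39 ± 0.45 (SE, limma-voom adjusted p = 0.634), and 0.79 with edgeR and 0.82 with DESeq2, which did not call it either. Nr4a1 held 20.1, 23.8, 18.8 and 18.0 CPM in WT and 37.7, 33.9, 13.5 and 13.8 CPM in KO cerebella. KO libraries 7 and 8 of Nr4a1 lay below every WT library and KO 5 and 6 above, and the log2 change was 0.082 ± 0.28 (limma-voom adjusted p = 0.890), against uncalled values of 0.27 with edgeR and 0.28 with DESeq2.

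Arc held 20.8, 22.0, 22.5 and 21.0 CPM in WT cerebella and 30.8, 28.9, 28.4 and 24.7 CPM in KO cerebella. The groups did not overlap, and unlike Fos the 2 pairs of KO libraries were near each other, at means of 29.8 and 26.5 CPM. The mean of Arc rose 1.31-fold, from 21.6 ± 0.791 to 28.2 ± 2.52 CPM (SD, n = 4 each), with a log2 change of 0.36 ± 0.068 (SE, limma-voom adjusted p = 0.00905). In CPM, the groups of Fosb, Egr1, Egr3 and Arc among the 9 tested genes did not overlap, with KO above WT. The same held for 8.79% of all genes tested in cerebellum. Since Fosb and Egr3 were tested only through their KO libraries, the count was also taken with no filter, where it was 5 of 10, with Egr2, against 5.57% of all 30564 genes.

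**Figure D2:**
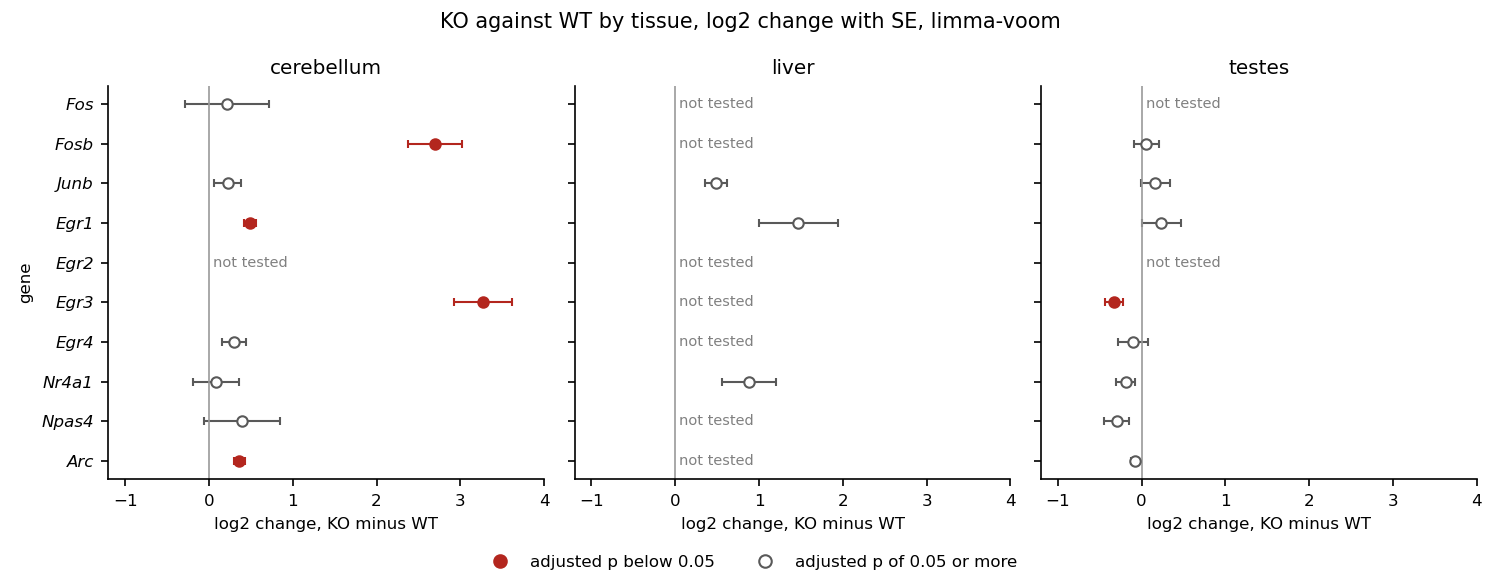
Log2 change, KO minus WT, with its SE for each gene in cerebellum, liver and testes from limma-voom fits of 8 libraries each. Filled points passed an adjusted p of 0.05: Fosb, Egr1, Egr3 and Arc in cerebellum, higher in KO, and Egr3 in testes, lower in KO. Genes marked as not tested were below 1 CPM in too many libraries.

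Leaving out either pair of KO libraries, an alternative added after the pairs had been seen, divided the 9 genes further. Fosb, Egr1, Egr3 and Arc were called higher without KO 7 and 8, where 2.03% of all genes were, and also without KO 5 and 6, where 5.52% of all genes were called higher and 4.62% lower. Fos had a log2 change of 1.51 without KO 7 and 8 and of -0.95 without KO 5 and 6. These values were 1.48 and -0.58 for Npas4, 0.81 and -0.58 for Nr4a1 and 0.58 and -0.095 for Junb. Of the 9 genes, limma-voom called 8 higher without KO 7 and 8. Without KO 5 and 6 it called 4 higher and 2, Fos and Nr4a1, lower. For Fos, Npas4, Nr4a1 and Junb the fits restate the split that led to them, so they are given as a description with no test. The direction of Fos, Nr4a1, Npas4 and Junb thus depended on which pair of KO libraries was kept, and that of Fosb, Egr1, Egr3, Egr4 and Arc did not. When the counts of neighbouring libraries were summed, leaving 2 samples a group, Egr3 (adjusted p = 0.0367) and Fosb (adjusted p = 0.0434) were still called by limma-voom. Egr1 (0.50, adjusted p = 0.0749) and Arc (0.36, adjusted p = 0.0985) were not, at log2 changes close to those from 8 libraries. Arc also missed the threshold without either pair of WT libraries, at 0.34 and 0.38 with limma-voom adjusted p values of 0.0752 and 0.0548.

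**Figure D3:**
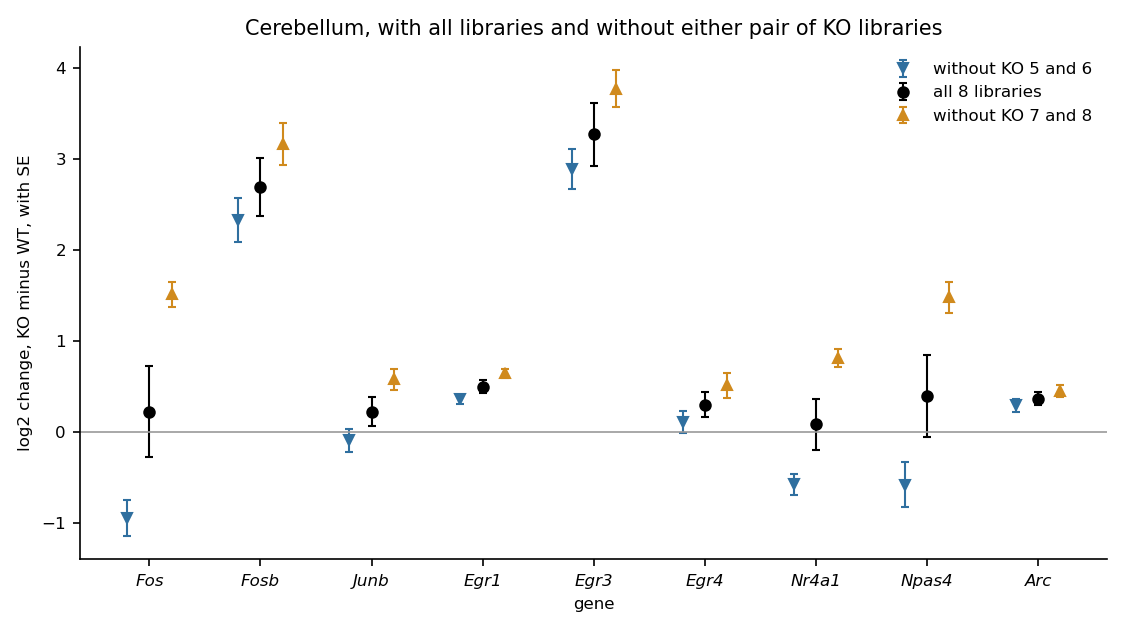
Log2 change in cerebellum, KO minus WT, with its SE for the 9 genes tested, from all 8 libraries and without KO libraries 5 and 6 or 7 and 8. Points for Fosb, Egr1, Egr3 and Arc stay above 0, whereas those of Fos, Nr4a1, Npas4 and Junb lie on either side of 0 depending on the pair left out.

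Markers of other cells and brain regions moved with genotype in part, against 3.93% of all genes called higher and 2.51% lower. The summed level of 9 forebrain genes was 9.57 to 10.2 CPM in WT and 13.6 to 17.0 CPM in KO cerebella, with Drd2, a dopamine receptor of striatal neurons, and Bcl11b, a factor of deep-layer cortical and striatal neurons, called higher at log2 changes of 1.90 and 1.52 (limma-voom adjusted p = 0.00329 and 0.00557). Emx1, a defining factor of the cerebral cortex, stayed at or below 0.0866 CPM in WT and at 0 in KO cerebella, and 5 of the 9 genes passed the filter. Drd2, at 0.303 to 0.647 CPM in WT and 1.42 to 2.81 CPM in KO, entered the test only through its KO libraries. Midbrain and brainstem genes summed to 5.34 to 7.32 CPM in WT and 9.05 to 10.4 CPM in KO cerebella, but only 1 of the 9, Th, the first enzyme of dopamine synthesis, was abundant enough to test (0.46, limma-voom adjusted p = 0.0323). Of the others, 3 were at 0 in all WT and 2 in all KO cerebella. Of 5 granule cell genes 3 fell, namely Zic1, Neurod1 and Gabra6 at -0.21, -0.22 and -0.26, and the 5 summed to 3518 to 3548 CPM in WT and 3118 to 3359 CPM in KO. Of 5 Purkinje cell genes limma-voom called 2 higher, Pcp2 and Slc1a6 (0.24 and 0.18, adjusted p = 0.0355 and 0.0393), DESeq2 called 2 and edgeR called 0. Endothelial genes summed to 83.8 to 88.4 CPM in WT and 95.4 to 104 CPM in KO, with 0 of 6 called by limma-voom or edgeR, 1 by DESeq2 and 3 at an unadjusted p below 0.05. Blood genes summed to 7.76 to 8.67 CPM in WT and to 7.01, 6.73, 4.09 and 3.74 CPM in KO libraries 5 to 8, so that the KO pairs differed in the same direction as for Fos. Of 3 blood genes tested, limma-voom called Alas2, an enzyme of haem synthesis in red cell precursors, lower (-0.58, adjusted p = 0.0391), and edgeR and DESeq2 called 0. Exons of Zic1, Pcp2 and Alas2 overlap a gene on the opposite strand and those of Neurod1 overlap genes on both strands. Their values are uncertain as for Junb. In whole tissue, fewer cells of a type and less RNA per cell cannot be told apart. The part of these markers in the rise of Egr3, Fosb, Egr1 and Arc was not tested. Neither was that of the choroid plexus and blood genes in the split of Fos, Npas4, Nr4a1 and Junb.

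In liver, 3 of the 10 genes were abundant enough to test, and all 3 had higher means in KO. None passed in limma-voom: 0 of 3 were called, against 2.79% of all 12816 genes tested called higher and 3.12% lower. All 3 had an unadjusted p below 0.05. DESeq2 called 2 higher (Junb and Nr4a1), against 5.18% of all genes, limma-voom with quality weights called 2 higher (Junb and Egr1), against 6.39%, and edgeR called 0, against 2.81%. Of the liver markers, hepatocyte genes summed to 46603 to 60374 CPM in WT and to 56543, 58107, 75180 and 81846 CPM in KO livers 5 to 8. Of the 5 hepatocyte genes limma-voom called 1 higher and 1 lower, edgeR called 1 and DESeq2 called 3. Stellate cell genes summed to 178 to 207 CPM in WT and to 180, 189, 252 and 259 CPM in KO livers, so that KO 7 and 8 stood above KO 5 and 6 for both lists. Macrophage, endothelial and blood genes had 0 calls by limma-voom or edgeR and 1 (endothelial) by DESeq2, with 2 endothelial genes at an unadjusted p below 0.05. The part of these markers in the liver values was not tested.

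Junb, the most abundant of the 10 genes per length in liver, held 24.9, 23.0, 26.1 and 26.6 CPM in WT livers 1 to 4 and 41.5, 38.4, 32.9 and 28.9 CPM in KO livers 5 to 8. Every KO liver was above every WT liver for Junb, as for 7.34% of all genes tested in liver. Its log2 change was 0.49 ± 0.13 (SE, limma-voom adjusted p = 0.0564), and it was called without WT library 4 (adjusted p = 0.0466) or KO library 8 (adjusted p = 0.0322), and without both KO 7 and 8 (0.74, adjusted p = 0.00681). Egr1 held 6.70, 6.80, 30.8 and 29.5 CPM in WT livers and 32.3, 28.2, 47.9 and 46.6 CPM in KO livers. WT livers 1 and 2 were low for Egr1 and WT livers 3 and 4 lay close to KO livers 5 and 6, so that the pairs within WT differed 4.46-fold. The log2 change of Egr1 was 1.47 ± 0.47 (limma-voom adjusted p = 0.0936). It was 0.31 without WT 1 and 2 (limma-voom adjusted p = 0.457). It was called without WT 3 and 4 (2.57, adjusted p = 0.00227) and without WT library 4 (1.82, adjusted p = 0.0425).

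Nr4a1, which hepatocytes induce during fasting, held 2.82, 2.43, 1.18 and 1.26 CPM in WT livers and 5.36, 3.47, 3.77 and 2.35 CPM in KO livers. Only KO liver 8 fell within the WT range, and the log2 change was 0.88 ± 0.32 (limma-voom adjusted p = 0.133), called without KO 7 and 8 (1.26, adjusted p = 0.0494). Fos held 27, 27, 16 and 7 counts in WT and 18, 13, 27 and 29 counts in KO livers. Both groups of Fos stayed below 1 CPM and overlapped. Fosb, Egr2, Egr3 and Arc held 0 to 9 counts per WT liver and 0 to 11 per KO liver, with overlapping groups for each. Egr4 had no count in any of the 8 livers, which allows up to 0.0792 to 0.165 CPM per library, and Npas4 had 1 count in 1 KO liver.

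**Figure D4:**
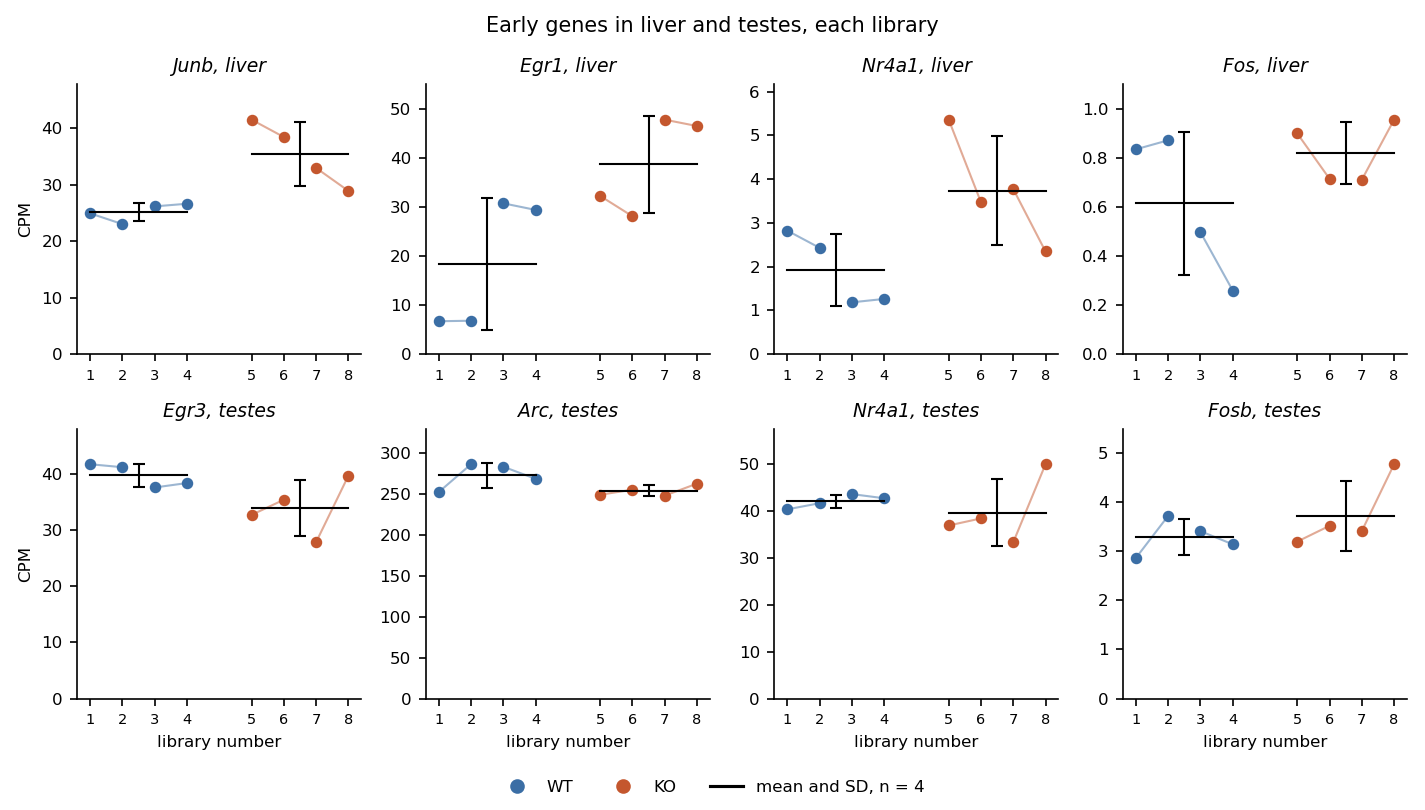
CPM per library of Junb, Egr1, Nr4a1 and Fos in liver and of Egr3, Arc, Nr4a1 and Fosb in testes, drawn as for cerebellum with axes from 0. In liver all KO points of Junb lie above all WT points and Egr1 splits the WT libraries into a low and a high pair. In testes the groups of these 4 genes overlap.

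In testes, Egr3 was the only one of 8 tested genes called, and it was lower in KO. By limma-voom 1 of 8 was called lower and 0 higher, against 10.7% of all 19329 genes tested called lower and 9.74% higher, so the share of these genes was near that of all genes or below it. Egr3 held 41.7, 41.2, 37.6 and 38.4 CPM in WT testes 1 to 4 and 32.7, 35.4, 27.9 and 39.7 CPM in KO testes 5 to 8. KO library 8 lay within the WT range and the other KO libraries below it. The log2 change of Egr3 was -0.33 ± 0.11 (SE, limma-voom adjusted p = 0.0497). edgeR gave an adjusted p of 0.0504 and the fit with no filter 0.0903, and the call was lost without any 1 of libraries WT 1, WT 2, WT 3, WT 4, KO 5 or KO 7 (adjusted p = 0.0611 to 0.106). The call of Egr3 was also lost with neighbouring libraries summed and with neighbouring numbers fitted as a block.

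Arc was the most abundant of the 10 genes in testes, at 252, 286, 283 and 269 CPM in WT and 249, 255, 248 and 263 CPM in KO. Its groups overlapped, with a log2 change of -0.078 ± 0.053 (limma-voom adjusted p = 0.309). With other scaling it was larger, at -0.16 with TMM in limma-voom (adjusted p = 0.0645), -0.17 with edgeR (adjusted p = 0.0628) and -0.17 with DESeq2, which called it (adjusted p = 0.0388). Nr4a1 held 40.3, 41.6, 43.5 and 42.6 CPM in WT and 36.8, 38.4, 33.3 and 49.9 CPM in KO testes. KO library 8 was the highest and KO library 7 the lowest of the 8 for Nr4a1. Its log2 change was -0.19 ± 0.11 (limma-voom adjusted p = 0.240), and without KO library 8 it was called at -0.31 (adjusted p = 0.0267). Fosb held 2.87, 3.72, 3.41 and 3.14 CPM in WT and 3.20, 3.52, 3.41 and 4.77 CPM in KO testes, with overlapping groups and a log2 change of 0.056 ± 0.15 (limma-voom adjusted p = 0.809). Junb, Egr1, Egr4 and Npas4 had log2 changes of 0.16, 0.23, -0.11 and -0.30 with limma-voom adjusted p values from 0.169 to 0.694. Fos and Egr2 failed the filter, at 8 to 40 and 6 to 21 counts per library, and their groups overlapped. Germ cell genes of testes summed to 6714 to 6958 CPM in WT and 4625 to 6313 CPM in KO. Sertoli cell genes summed to 189 to 219 CPM in WT and 253 to 355 CPM in KO. Of 6 germ cell genes limma-voom called 1 higher and 2 lower, and of 5 Sertoli cell genes 4 higher. Over all genes tested, 9.74% were called higher and 10.7% lower. Leydig cell genes summed to 1016 to 1105 CPM in WT and to 971, 982, 1532 and 921 CPM in KO testes. Of these, 1 of 5 was called higher. Macrophage genes summed to 226 to 230 CPM in WT and 181 to 208 CPM in KO, with 1 of 8 called lower. The part of these markers in the testes values was not tested.

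The KO effects on Fosb and Egr3 differed between tissues. In a fit of all 24 libraries with limma-voom, the effect on Fosb in testes minus that in cerebellum was -2.74 ± 0.42 on the log2 scale (adjusted p = 0.000809), and for Egr3 it was -3.73 ± 0.61 (adjusted p = 0.00125). Of 9 members tested 2 were called in this contrast, against 6.14% of all 22678 genes. The effect on Fosb in cerebellum minus that in liver was 2.83 ± 0.51 (limma-voom adjusted p = 0.00376), 1 of 9 members called against 2.49% of all genes. For Egr3 that difference was 2.71 ± 0.84 (limma-voom adjusted p = 0.0951). It was called by edgeR and DESeq2, at adjusted p values of 0.0208 and 9.38e-06, and by limma-voom without replicate number 2 (0.00312), but not with the replicate block (0.220) nor without any other number (0.0927 to 0.291). Liver held at most 11 counts of either gene per library. Between testes and liver 0 of 9 members were called by limma-voom, edgeR or DESeq2, against 7.03% of all genes in limma-voom, where none of the 9 had an unadjusted p below 0.05. For the other 7 members limma-voom adjusted p values in these contrasts ran up from 0.250. DESeq2 called 1 of them, Arc, in testes minus cerebellum (-0.63, adjusted p = 7.31e-07), where limma-voom gave -0.52 (adjusted p = 0.312).

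Levels across tissues were compared in WT libraries. Per kb of exonic length, Arc stood at 89.2 ± 5.10 CPM per kb in testes (SD, n = 4), 7.06 ± 0.259 in cerebellum and 0.0455 ± 0.0362 in liver. Egr3 and Nr4a1 were also highest in testes, at 9.02 ± 0.464 and 12.0 ± 0.398 CPM per kb, against 0.105 ± 0.0245 and 5.75 ± 0.726 in cerebellum. Fosb was highest there too, at 0.526 ± 0.0588 CPM per kb in testes, 0.0963 ± 0.0384 in cerebellum and 0.0323 ± 0.0155 in liver. In testes the order per length was Arc, Nr4a1, Egr3, Junb, Egr1, Egr4, Fosb, Npas4, Fos and Egr2. The libraries of Junb and Egr1, of Egr1 and Egr4, of Fosb and Npas4 and of Fos and Egr2 overlapped as neighbours in that order.

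In WT cerebellum the order was Egr1 at 8.21 ± 0.102 CPM per kb, Arc, Nr4a1, Fos, Egr4, Junb, Npas4, Egr3, Fosb and Egr2. The libraries overlapped between Fos and Egr4 and between Egr3 and Fosb, the 2 genes with the largest KO changes, which ranked just above Egr2 at the foot of the order. In KO cerebella Egr3 reached 1.24 ± 0.442 and Fosb 0.717 ± 0.244 CPM per kb, still below the 8.21 of Egr1 in WT. In WT liver Junb led at 10.9 ± 0.701 CPM per kb, followed by Egr1 at 4.11 ± 3.01, Nr4a1 at 0.548 ± 0.236 and Fos at 0.262 ± 0.124. The libraries of Nr4a1 and Fos overlapped, as did those of Arc, Egr2, Fosb and Egr3 below them. In the 24-library limma-voom fit, 6 of 9 members differed between WT cerebellum and liver against 85.3% of all genes, 8 of 9 between testes and liver against 89.7%, and 7 of 9 between testes and cerebellum against 89.3%. These shares were near or below those of all genes. The members that did not differ were Fosb, Egr3 and Egr1 between cerebellum and liver, Fos between testes and liver, and Npas4 and Junb between testes and cerebellum.

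Other genes of the same response were taken as 4 lists written from general knowledge. Their counts in cerebellum stand against 3.93% of all genes tested called higher and 2.51% lower. In cerebellum 2 of 18 tested genes of the other early regulators were higher and 0 lower, namely Klf10, a Krüppel-like repressor (0.31 on the log2 scale, limma-voom adjusted p = 0.0281), and Btg2, an antiproliferative cofactor (0.25, adjusted p = 0.0381). Of the feedback regulators 1 of 14 was higher, the stress gene Gadd45b (0.42, adjusted p = 0.0393). Of the upstream kinases and factors 2 of 17 were higher, Camk2a, a synaptic calcium kinase (0.46, adjusted p = 0.000327), and Srf, which binds the CArG box (0.22, adjusted p = 0.0400). Of the late neuronal effectors 3 of 10 were higher and 0 lower. Vgf, a neurosecretory precursor, rose from 12.0 to 13.8 CPM in WT to 29.8 to 37.7 CPM in KO (1.37, limma-voom adjusted p = 3.25e-06). Nptx2, a pentraxin that clusters AMPA receptors, rose from 0.817 to 1.09 CPM in WT to 1.38 to 3.68 CPM in KO (1.13, adjusted p = 0.0342), and passed the filter through its KO libraries. Scg2, a granin of secretory vesicles, rose by 0.35 (limma-voom adjusted p = 0.0204). The median log2 changes of the 4 lists were 0.095, 0.073, 0.016 and 0.12, against -0.0059 over all genes tested and 0.36 over the 9 early genes, whose median includes the genes admitted through KO alone.

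In liver the called genes of these lists went in both directions, against 2.79% of all genes tested called higher and 3.12% lower. Of 16 other early regulators, Maff, a small Maf factor, was higher (1.34, limma-voom adjusted p = 0.00262), and Bhlhe40, a repressor of the clock and of lipid genes, and Csrnp1, a nuclear factor, were lower (-0.84 and -0.80, adjusted p = 0.0131 and 0.00764). Of 13 feedback genes, Gadd45g was lower (-1.57, adjusted p = 0.0243). Dusp5, a phosphatase of ERK, and Nab2, a corepressor of Egr1, were higher (0.97 and 0.90, limma-voom adjusted p = 0.0415 and 0.00409), and Dusp5, at 0.556 to 1.09 CPM in WT and 1.10 to 1.75 CPM in KO, passed the filter through its KO libraries. Upstream kinases and factors had 0 of 15 called by limma-voom or edgeR and 1 by DESeq2, with 4 at an unadjusted p below 0.05, and late effectors had 2 of 5 higher, Inhba (0.56, adjusted p = 0.0171) and Nrn1 (0.40, adjusted p = 0.0124). Exons of Bhlhe40, Csrnp1, Dusp5, Nab2 and Nrn1 overlap a gene on the opposite strand, so these values are uncertain as for Junb. The liver medians of the 4 lists were 0.18, 0.16, -0.0057 and 0.20, against -0.0031 over all genes and 0.88 over the 3 early genes tested.

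In testes 9.74% of all genes tested were called higher and 10.7% lower, and each list there holds 19 tested genes or fewer, so that counts of 1 or 2 are near those shares. Of 19 other early regulators 2 were higher and 1 lower, with Ier2 at 0.54, Klf6 at 0.51 and Csrnp1 at -0.42 (limma-voom adjusted p = 0.0432, 0.00587 and 0.00324). Feedback genes had 4 of 14 higher and 1 lower, with Spry2, an inhibitor of receptor tyrosine kinase signalling, at 0.70, Rgs2, an inhibitor of G protein signalling, at 0.69, Gadd45b at 0.43 and Nab1, a corepressor of Egr factors, at 0.37 as the 4 with the largest changes. Upstream genes had 3 of 16 higher and 1 lower, with Elk3 at -0.59 and Elk4, Mef2c and Mef2a at 0.41, 0.38 and 0.33. Exons of Csrnp1, Elk3, Elk4 and Mef2a overlap a gene on the opposite strand. Late effectors had 1 of 5 higher, Nptx2 at 0.51 (limma-voom adjusted p = 0.0148). The testes medians of the 4 lists were 0.084, 0.18, 0.12 and 0.39, against 9.72e-05 over all genes and -0.092 over the 8 early genes tested.

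Likeness across libraries was measured by Pearson's r between a gene's log2 CPM, centred within each genotype, and the mean of the centred early genes. In cerebellum, over 8 libraries that share depth and neighbouring pairs, the 5 most alike genes among 15185 were Trim36 (r = 0.992), Spry4 (0.989), Nr4a2 (0.988), Ttc1 (0.987) and Slit1 (0.986). Nr4a2 is the close relative of Nr4a1, and Spry4 is a feedback inhibitor of growth factor signalling. In liver, against 3 early genes, Mycl (0.973) and Spry4 (0.930) led, followed by Rassf5, Shisa5 and Dclk3. In testes, against 8 early genes, Fbf1 (0.990), Rnf24, Wdr25, Tkfc and Klhl18 were the most alike. These are highest values chosen from many genes over 8 libraries and are given as a description.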

How the data were processed

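RNA-seq libraries of total RNA, depleted of ribosomal RNA and made with a stranded kit, were read as paired ends. The authors deposited expected counts per gene, from STAR alignments to mm10 and RSEM with the GENCODE M21 annotation, and tool versions are not given in the sources used here. The values of the 10 genes were whole numbers in all libraries, and 0 columns were left unmatched. CPM (count-per-million) is a count scaled by its library's total, and CPM per kb divides it by the union of exons.

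Quantile normalization and voom in limma 3.58.1 (R 4.3.3) follow the study's methods, which also filter at 1 CPM. Fitting each tissue apart, and asking for 1 CPM in at least 4 of 8 libraries, were choices made here. Tissues were compared in a fit of 24 libraries with TMM factors from edgeR 4.0.16. Tests were adjusted over all genes, with 0.05 as threshold, and log2 changes come from these fits while folds are ratios of mean CPM. Expected counts were rounded for edgeR and DESeq2 1.42.0. The fits were also run on simulated counts drawn independently for each library. That run did not cover the likeness of neighbouring libraries seen in these data.

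The members, lists and tests were chosen with earlier results of these data known. Outside the 10 genes and Thumpd1, text names the called genes of each pathway list (up to 4 per tissue, by size), called cerebellum markers (up to 3 a list, those of liver and testes not being named) and the 5 most alike genes of at least 1 log2 CPM. The alternatives on neighbouring libraries were added after seeing the data. An interval or limit from a count of 0 (3 counts of a total) covers counting error only. The values of 1 gene of the marker lists are not reported here.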

Additional observations from a re-analysis of the deposited data

Results flagged for a closer look

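The KO effects on 2 of the 10 early genes differed between tissues by a test of the difference itself, an interaction in the limma-voom fit of 24 libraries. For Fosb, the effect in cerebellum minus that in liver was 2.83 on the log2 scale (adjusted p = 0.00376), and the effect in testes minus that in cerebellum was -2.74 (adjusted p = 0.000809). For Egr3, the effect in testes minus that in cerebellum was -3.73 (adjusted p = 0.00125). These 3 differences also passed with edgeR, with DESeq2, without any 1 replicate number and with the replicate block. In WT mice the 2 genes held 0.601 and 0.462 CPM in cerebellum, 3.29 and 39.7 CPM in testes and 0.202 and 0.140 CPM in liver. No library stood apart from the other 3 of its group beyond Dixon's limit, in 55 groups of 4 libraries with more than 3 counts, where chance flags about 1 group in 20.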

How the results depend on the processing

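Egr3, Fosb, Egr1 and Arc were called higher in cerebellum by edgeR, DESeq2, limma-voom with TMM, no filter, a weaker filter and quality weights, and without any 1 library. Without single libraries or neighbouring pairs, 3 to 8 members were called in cerebellum, where 2.05% to 14.3% of all genes were. All 8, seen without KO 7 and 8, were higher, and without KO 5 and 6 there were 4 higher and 2 lower. In liver 0 to 2 were called, against 1.32% to 11% of all genes, and in testes 0 to 2, against 0.0569% to 42.3%. For the KO effect in cerebellum minus liver 1 to 2 were called, against 1.16% to 2.05% of all genes. With neighbouring libraries summed, 2 members were called in cerebellum and 0 in testes, against 0.296% and 0.00517% of all genes. In liver DESeq2 and quality weights each called 2 of 3 higher, against 5.18% and 6.39% of all genes called higher. In testes edgeR, no filter, the weaker filter and neighbouring numbers as a block called 0, against 7.03% to 23% of all genes. There DESeq2 called 2 and quality weights 3 of 8, all lower, against 13.1% and 16% of all genes called lower. For the KO effect in cerebellum minus liver edgeR and DESeq2 called 2, against 2.71% and 6.6% of all genes. For testes minus cerebellum DESeq2 called 3 where limma-voom called 2, against 10.4% and 6.14% of all genes.

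Over all genes, cerebellum gave 1045 calls, and 628 with no filter, 1757 with quality weights, 48 with libraries summed, 598 with neighbouring numbers as a block and 333 to 2321 without libraries or pairs. Liver gave 757, and 1408 with DESeq2, 492 with no filter, 1705 with quality weights, 10 summed, 274 with the block and 169 to 1409 without libraries or pairs. Testes gave 3957, and 6107 with quality weights, 1 summed, 1773 with the block and 11 to 8168 without libraries or pairs. Fewer samples enter the summed fits, and the cause of the other differences was not tested.

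Signs turned only for changes that were not called with all libraries. Without libraries or pairs, log2 changes in cerebellum ran from -0.95 to 1.51 for Fos, -0.58 to 0.81 for Nr4a1, -0.58 to 1.48 for Npas4 and -0.095 to 0.58 for Junb. In testes they ran from -0.063 to 0.16 for Fosb, -0.11 to 0.55 for Egr1, -0.11 to 0.43 for Junb and -0.38 to 0.15 for Egr4, and quality weights gave -0.031 for Fosb, -0.14 for Egr1 and -0.074 for Junb. Without 1 replicate number, WT cerebellum minus liver ran from -0.055 to 1.42 for Egr3 and -0.18 to 0.63 for Egr1, and Egr1 was -0.20 with edgeR, -0.17 with DESeq2 and -0.0088 with the replicate block. For the KO effect, cerebellum minus liver, Fos ran from -0.69 to 0.25, Arc from -0.0072 to 1.57 and Egr4 from -0.072 to 0.24, and Fos was 0.38 with edgeR and 0.36 with DESeq2. For testes minus liver, Fosb ran from -0.28 to 0.31, Fos from -0.038 to 0.35 and Arc from -0.54 to 1.05, and Arc was -0.056 with edgeR and -0.16 with DESeq2. For testes minus cerebellum, Fos ran from -0.25 to 1.03, Nr4a1 from -0.59 to 0.027 and Junb from -0.24 to 0.15, and Fos was -0.066 with edgeR and -0.19 with DESeq2.

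KO and WT libraries of a tissue share no replicate numbers, so a replicate block was fitted only across tissues. It called 6, 8 and 7 members between WT tissues, against 85.5%, 89.7% and 89.2% of all genes. For the KO effects in cerebellum minus liver, testes minus liver and testes minus cerebellum it called 1, 0 and 2. These stand against 2.76%, 10.6% and 4.56% of all genes. The member counts were as without the block. Deviations of same-numbered libraries of different tissues correlated between -0.0916 and 0.124, so the numbers were not taken as pairs. Counts below about 10 in some or all libraries limit Egr2 and the WT levels of Egr3 and Fosb in cerebellum, and Fosb, Egr2, Egr3, Arc, Npas4 and Egr4 in liver.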
